A study of Zea mays with 4 samples.

Results

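The miR160 family was followed through 9 entries of a table of 576 maize miRNAs, taken by name and covering both arms of the hairpin. The 5p arm was represented by zma-miR160a-5p, zma-miR160b-5p, zma-miR160c-5p, zma-miR160d-5p, zma-miR160g-5p and zma-miR160e, and the 3p arm by zma-miR160a-3p, zma-miR160b-3p and zma-miR160g-3p. zma-miR160e carries no arm in its name and was placed with the 5p arm because its values equalled those of zma-miR160d-5p in all 4 libraries. The table held 13 miR160 entries in all. Of the 4 outside the list, zma-miR160c-3p, zma-miR160d-3p and zma-miR160f-3p had 0 reads in all 4 libraries, and zma-miR160f-5p had 2 reads in the seminal root library and 0 elsewhere. As a one-sided limit, a count of 0 allows up to 0.259 to 0.280 RPM, the value of 3 reads in these libraries; the intervals used below, which have both sides, would reach 0.319 to 0.344 RPM.

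Tips of 1 cm were cut from roots of seedlings of the maize cultivar Zhengdan 958, kept in Hoagland nutrient solution, and the small RNA of each group was sequenced as 1 library. The groups were the crown root (CR, 15 days after germination), the seminal root (SR, 7 days), the later primary root (PRO, 15 days) and the early primary root (PRY, 3 days). The labels name no mutant, transgene or treatment. Seminal and primary roots are of embryonic origin, and crown roots come later from nodes of the stem. CR and PRO share an age and differ in root type, PRO and PRY share a root type and differ in age, and in the other pairs age and root type cannot be told apart. A root tip holds many cell types, so fewer cells that make miR160 and less miR160 per cell cannot be told apart either.

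miR160 is a conserved plant miRNA that guides cleavage of transcripts of a class of auxin response factors, known in Arabidopsis as ARF10, ARF16 and ARF17, which mostly repress auxin-responsive genes. In Arabidopsis the balance of miR160 with ARF10 and ARF16 is known to shape the root cap and the stem cells below it. The 5p strand is the one that guides cleavage, and the 3p strand of the same hairpin is its passenger, which in many families accumulates at a lower level. Of the 7 miR160 hairpin names in the table, 5 (MIR160b, MIR160c, MIR160d, MIR160f and MIR160g) matched a gene symbol in the RefSeq annotation of assembly Zm-B73-REFERENCE-NAM-5.0, and no 2 of those genes were adjacent. MIR160a and MIR160e had no entry there.

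The library totals recovered from the values were 10920069 reads in CR, 11572637 in SR, 11057522 in PRO and 10721082 in PRY, and a single read came to 0.0864 to 0.0933 RPM, reads scaled to a total of 1000000. Summed over entries with distinct values, miRNAs came to 15.5% of the total in CR, 18.9% in SR, 23.6% in PRO and 33.5% in PRY. Nearly equal entries each enter these sums, such as miR156e-5p with 217465 and miR156l-5p with 217463 reads in PRY. Reads that such entries share are counted repeatedly, so the sums are not shares of reads. Levels relative to the library total move with the share that miRNAs take, which these sums do not give. As a check for flower RNA, 15 entries of miR2118 and miR2275, which start reproductive phased siRNAs, summed to 0 reads in CR, 0 in SR, 2 in PRO and 2 in PRY. No miRNA list marks the root tip itself. With no replicate, every difference below compares 2 libraries and has no replicate check. Intervals are exact 95% intervals of counting error.

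The 9 entries held 4 distinct sets of values, 2 in each arm. zma-miR160a-5p, zma-miR160b-5p and zma-miR160c-5p were identical, zma-miR160d-5p, zma-miR160e and zma-miR160g-5p were identical, and zma-miR160b-3p equalled zma-miR160g-3p. The 2 sets of 5p values differed by 2 reads in SR, by 2 in PRO and by 0 in CR and PRY. The reads of the 5p arm can therefore not be assigned to single hairpins, and the identical entries count as 1 measurement.

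The guide strand was scarce in the crown and seminal root libraries and several-fold more abundant in both primary root libraries. zma-miR160a-5p had 6 reads in CR (0.549 RPM, interval 0.202 to 1.20), 7 in SR (0.605 RPM, 0.243 to 1.25), 37 in PRO (3.35 RPM, 2.36 to 4.61) and 33 in PRY (3.08 RPM, 2.12 to 4.32). zma-miR160d-5p had 6 reads in CR, 9 in SR (0.778 RPM, 0.356 to 1.48), 39 in PRO (3.53 RPM, 2.51 to 4.82) and 33 in PRY. CR and SR were the low libraries in both sets, and their intervals did not overlap those of PRO and PRY.

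Between CR and PRO, which have the same age, zma-miR160d-5p was 6.42-fold lower in CR (interval 2.70 to 18.6). It was 5.60-fold lower in CR than in PRY (2.32 to 16.4). In SR it was 4.54-fold lower than in PRO (2.16 to 10.6) and 3.96-fold lower than in PRY (1.85 to 9.40). The set of zma-miR160a-5p differed in the same direction, by 6.09-fold between CR and PRO and by 5.09-fold between SR and PRY. PRO and PRY were not distinguishable, with a PRO over PRY ratio of 1.15 (0.702 to 1.88) for zma-miR160d-5p, and neither were CR and SR, with a CR over SR ratio of 0.707 (0.207 to 2.22). Both ratios rest on few reads and leave room for differences of up to 1.88-fold and 4.83-fold. From highest to lowest the order of this set was PRO, PRY, SR and CR, with only the step between PRY and SR beyond counting error among neighbours.

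The passenger strand followed another pattern and, relative to the library total, was highest in PRY; for zma-miR160a-3p the 4 other scalings described below put SR first. zma-miR160a-3p had 84 reads in CR (7.69 RPM, 6.14 to 9.52), 151 in SR (13.0 RPM, 11.0 to 15.3), 116 in PRO (10.5 RPM, 8.67 to 12.6) and 190 in PRY (17.7 RPM, 15.3 to 20.4). zma-miR160b-3p, equal to zma-miR160g-3p, had 60 reads in CR (5.49 RPM, 4.19 to 7.07), 70 in SR (6.05 RPM, 4.72 to 7.64), 52 in PRO (4.70 RPM, 3.51 to 6.17) and 173 in PRY (16.1 RPM, 13.8 to 18.7). For zma-miR160b-3p, PRY stood apart from the other 3 libraries, which overlapped. zma-miR160a-3p was spread more evenly, with CR lowest except under the miRNA total, which put PRO lowest.

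**Figure D1:**
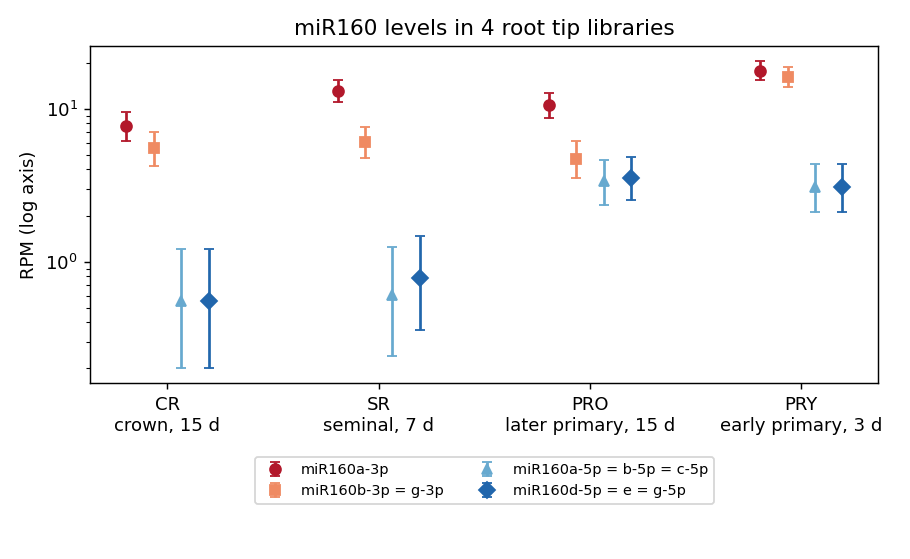
Level of the 4 distinct sets of miR160 values in RPM (log axis) in the CR, SR, PRO and PRY libraries, with exact 95% Poisson intervals of counting error as bars. The 5p sets lie at 0.549 to 0.778 RPM in CR and SR and at 3.08 to 3.53 RPM in PRO and PRY, and both 3p sets are highest in PRY with this scaling to the library total, while the 4 other scalings put SR above PRY for miR160a-3p.

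zma-miR160b-3p was 3.43-fold lower in PRO than in PRY (interval 2.50 to 4.77), 2.67-fold lower in SR (2.01 to 3.57) and 2.94-fold lower in CR (2.18 to 4.01). These 3 comparisons share the PRY library. Among CR, SR and PRO its ratios were 0.908 for CR over SR (0.633 to 1.30), 1.17 for CR over PRO (0.792 to 1.73) and 1.29 for SR over PRO (0.886 to 1.88), and all 3 intervals include 1. With the library total, zma-miR160a-3p was 2.30-fold lower in CR than in PRY (1.77 to 3.02), 1.69-fold lower in PRO (1.33 to 2.15) and 1.36-fold lower in SR (1.09 to 1.69). It was also 1.70-fold lower in CR than in SR (1.29 to 2.24) and 1.36-fold lower in CR than in PRO (1.02 to 1.83), a direction that turned with the miRNA total. SR and PRO were not distinguishable with the library total, at a ratio of 1.24 (0.970 to 1.60). The order of zma-miR160a-3p was PRY, SR, PRO and CR, and that of zma-miR160b-3p was PRY, SR, CR and PRO.

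**Figure D2:**
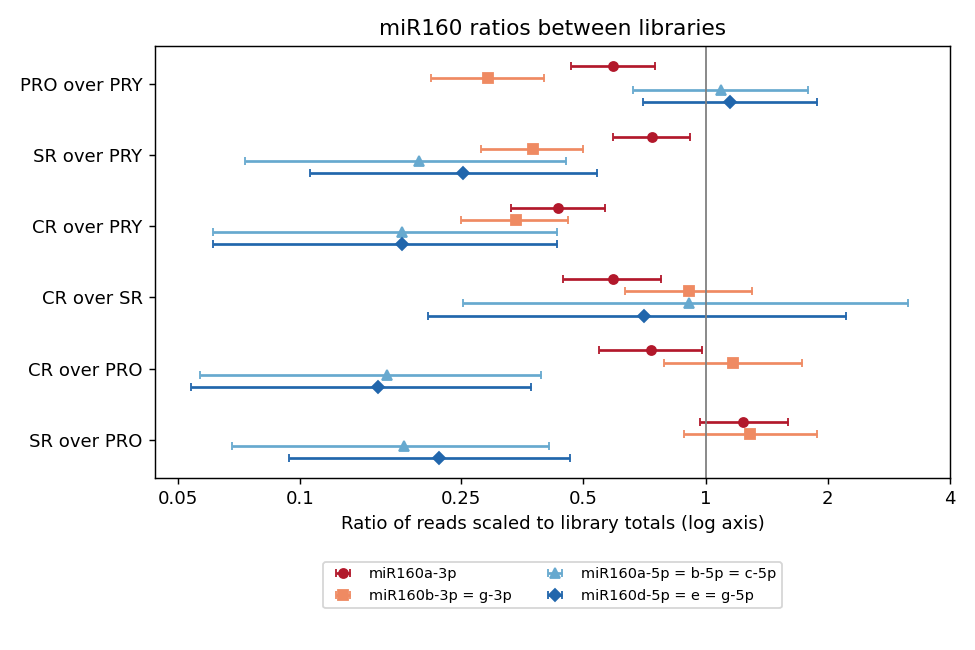
Ratios of miR160 reads scaled to library totals (log axis) in the 6 comparisons, first library over second, with exact conditional 95% intervals as bars and a line at 1. Both 5p sets lie left of the line in the 4 comparisons of CR or SR with PRO or PRY, and their intervals are wide because CR and SR hold 6 to 9 reads.

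A change of scaling multiplies all entries of a library alike. Directions turned only where the ratio with the library total lay between 0.733 and 1.17. For zma-miR160a-3p these included SR over PRY at 0.736 (0.591 to 0.916) and CR over PRO at 0.733 (0.547 to 0.979), whose intervals excluded 1. Against the library total, 4 other scalings moved the median log2 difference of all measured miRNAs by 0.07 to 0.49 for PRO over PRY, by 0.46 to 0.79 for SR over PRY and by -0.02 to 1.09 for CR over PRY. In the comparisons of CR and SR with PRO and PRY, zma-miR160a-5p and zma-miR160d-5p stayed lower under all 5 scalings, with intervals below 1. The miRNA total includes nearly equal entries separately, so reads shared within a family, such as miR156, enter it repeatedly. The median of CR over PRY shifted by 1.09 with that total and by 0.49 with the miRNA total without miR156. With the miRNA total, the scaling that shifted CR over PRY furthest, zma-miR160d-5p was 2.59-fold lower in CR than in PRY (1.07 to 7.57) and 4.23-fold lower in CR than in PRO (1.78 to 12.2). zma-miR160b-3p also stayed lower in PRO, SR and CR than in PRY under all 5 scalings, with the smallest difference for CR under the miRNA total, 1.36-fold (1.01 to 1.85).

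The 3p entry of the a hairpin did not keep its place. zma-miR160a-3p, lower in SR than in PRY with the library total, had SR over PRY ratios of 1.31 (1.05 to 1.63) with the miRNA total, 1.21 (0.971 to 1.51) with TMM factors, 1.03 (0.827 to 1.28) with DESeq2 size factors and 1.04 (0.837 to 1.30) with the miRNA total without miR156. SR was then its highest library, ahead of PRY. The PRO over PRY ratio came to 0.842 (0.663 to 1.07) with the miRNA total and to 0.791 (0.622 to 1.00) with TMM factors. The SR over PRO ratio, which included 1 with the library total, was 1.53 to 1.66 for zma-miR160a-3p and 1.58 to 1.72 for zma-miR160b-3p with the 4 other scalings, and those intervals lay above 1. Its CR over PRO ratio turned to 1.11 (0.831 to 1.49) with the miRNA total, and its CR over PRY ratio came to 0.938 (0.717 to 1.22). The lower level in CR than in SR kept its direction under all 5 scalings, at 1.39-fold to 2.83-fold. For zma-miR160b-3p the ratio of CR over PRO was 0.861 (0.584 to 1.27) with TMM factors but 1.49 to 1.77 with the 3 others, with intervals above 1, and that of CR over SR was 1.11 (0.769 to 1.58) with the miRNA total and 0.544 (0.379 to 0.779) with TMM factors. Neither pair has a settled direction. For zma-miR160a-5p the CR over SR ratio was 1.11 (0.307 to 3.84) with the miRNA total.

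**Figure D3:**
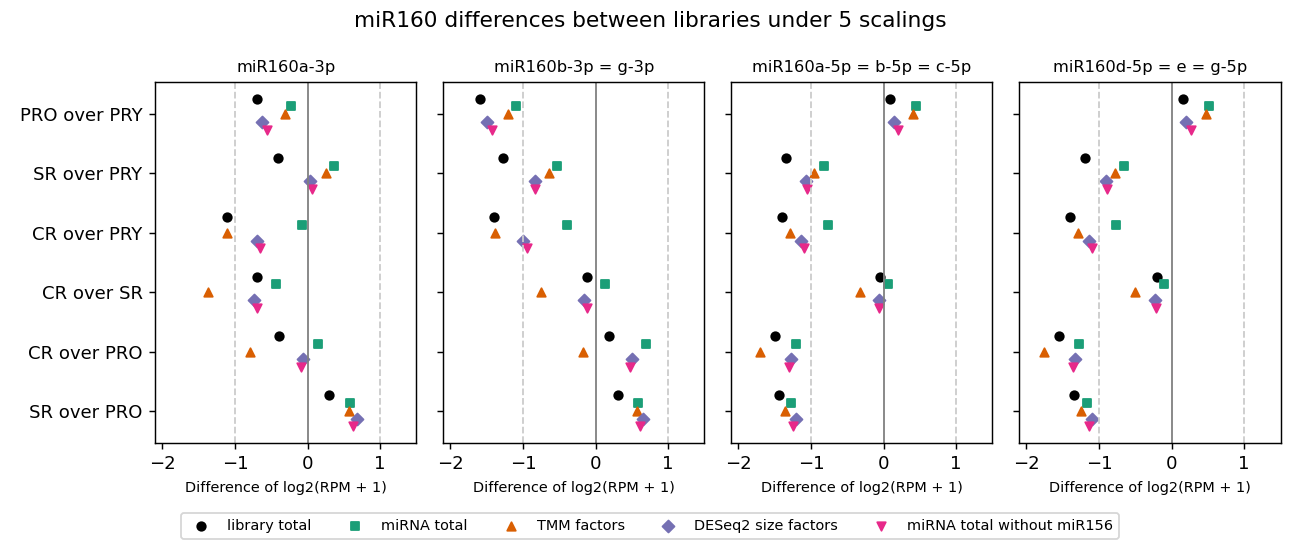
Difference of log2(RPM + 1) between libraries, first minus second, for the 4 distinct sets of miR160 values under 5 scalings, with dashed lines at -1 and 1. In the panel of miR160a-3p the points of SR over PRY lie on both sides of 0, at -0.41 with the library total and at 0.04 to 0.36 with the other scalings, while both 5p sets stay left of 0 in the comparisons of CR and SR with PRO and PRY.

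The ratio of the arms is taken within a library and does not depend on its total. The passenger strand outnumbered the guide strand in all 4 libraries when the highest entry of each arm was used. With zma-miR160a-3p and zma-miR160d-5p the counts were 84 against 6 reads in CR, 151 against 9 in SR, 116 against 39 in PRO and 190 against 33 in PRY. The 3p share of these reads was 93.3% in CR (exact binomial interval 86.1 to 97.5), 94.4% in SR (89.6 to 97.4), 74.8% in PRO (67.2 to 81.5) and 85.2% in PRY (79.9 to 89.6). The 3p over 5p ratio was 14.0 in CR (6.17 to 39.2), 16.8 in SR, 2.97 in PRO and 5.76 in PRY.

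The arm ratio was thus lowest in the later primary root and highest in the seminal and crown roots. It was 5.64-fold higher in SR than in PRO (interval of the ratio of ratios 2.55 to 13.7) and 4.71-fold higher in CR than in PRO (1.85 to 14.2). SR was 2.91-fold above PRY (1.31 to 7.13), and PRO had 0.517 times the ratio of PRY (0.297 to 0.896). CR over PRY, at 2.43 (0.955 to 7.35), and CR over SR, at 0.834 (0.255 to 2.95), could not be told from 1. With the distinct entries of each arm summed, CR over PRY was 2.18 (1.13 to 4.57), but both sets of 5p values were equal in CR and in PRY. If they hold the same reads, this sum counts them repeatedly and its interval is too narrow. For each pair from a single hairpin name the interval of CR over PRY included 1. For the miR160b and miR160g pairs SR over PRY was 1.91 (0.780 to 5.34) and 1.48 (0.651 to 3.71), both including 1. For zma-miR160a-3p and zma-miR160d-5p, which of them differed more between PRO and PRY depended on the scaling. The PRO over PRY ratio was 0.592 for zma-miR160a-3p and 1.15 for zma-miR160d-5p with the library total, but 0.842 (0.663 to 1.07) and 1.63 (0.999 to 2.68) with the miRNA total. zma-miR160b-3p was 2.41-fold to 3.43-fold lower in PRO than in PRY under all 5 scalings, a larger difference than that of either 5p set. Between SR and PRO the 5p arm differed more under all 5 scalings, by 3.39-fold to 4.54-fold for zma-miR160d-5p beside ratios of 1.24 to 1.66 for zma-miR160a-3p.

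In the pairs of arms from single hairpin names PRO was again lowest, followed by PRY. The miR160b pair, zma-miR160b-3p and zma-miR160b-5p, had 60 against 6 reads in CR (3p over 5p interval 4.33 to 28.3) and 70 against 7 in SR (4.61 to 25.8). Its ratio was 1.41 in PRO (0.904 to 2.20) and 5.24 in PRY (3.60 to 7.86). In PRO its arms were not distinguishable, with 52 against 37 reads. The miR160g pair had 60 against 6 reads in CR and ratios of 7.78 in SR, 1.33 in PRO and 5.24 in PRY. The miR160a pair had ratios of 14.0, 21.6, 3.14 and 5.76 in the same 4 libraries. Since 5p reads are shared by hairpins whose own 3p entries were at 0, such as zma-miR160c-3p and zma-miR160d-3p, these ratios are not those of single precursors. Summed over all 9 entries, which counts the shared 5p reads repeatedly, the 3p share was 85.0% in CR, 85.8% in SR, 49.1% in PRO and 73.0% in PRY.

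**Figure D4:**
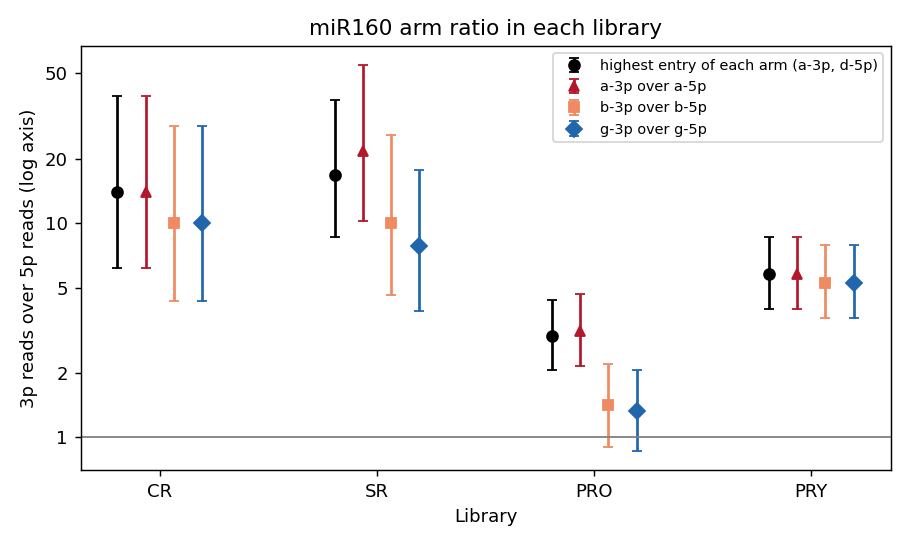
Ratio of 3p to 5p reads of miR160 (log axis) in each library for the highest entry of each arm and for the a, b and g hairpin names, with exact 95% intervals as bars and a line at 1. PRO is lowest for every pair, at 1.33 to 3.14, and CR and SR are highest, at 7.78 to 21.6.

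Within the 3p arm the a entry exceeded the entry shared by b and g most in SR and PRO, where their intervals did not overlap, while in CR and PRY they did. zma-miR160a-3p had 1.40 times the reads of zma-miR160b-3p in CR, 2.16 times in SR, 2.23 times in PRO and 1.10 times in PRY. In reads, the excess of zma-miR160a-3p was 24 in CR, 81 in SR, 64 in PRO and 17 in PRY. Whether some reads were counted in both entries is not known, so no interval is given for these ratios. For the same reason the overlap of the intervals of the entries does not measure the excess.

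Other hairpins put this arm ratio in context. Both arms were listed for 149 known hairpin names, and 92 of these had at least 30 reads over both arms in CR, 76 in SR, 94 in PRO and 80 in PRY. The 3p arm had more reads than the 5p arm in 39 of them in CR, 33 in SR, 49 in PRO and 36 in PRY. By log2 of the 3p over 5p ratio with 0.5 reads added, miR160a stood at 3.70 in CR, 4.34 in SR, 1.64 in PRO and 2.51 in PRY. The median of all measured hairpins was -0.906 in CR, -1.81 in SR, 0.164 in PRO and -1.02 in PRY. Above miR160a lay 28 hairpins in CR, 22 in SR, 36 in PRO and 25 in PRY. Many of these are families whose 3p strand is the guide, such as miR166a with 108861 against 66 reads in CR. A 3p share with an interval wholly between 10% and 90% was found for 20 of the hairpins in CR, 14 in SR, 21 in PRO and 17 in PRY.

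**Figure D5:**
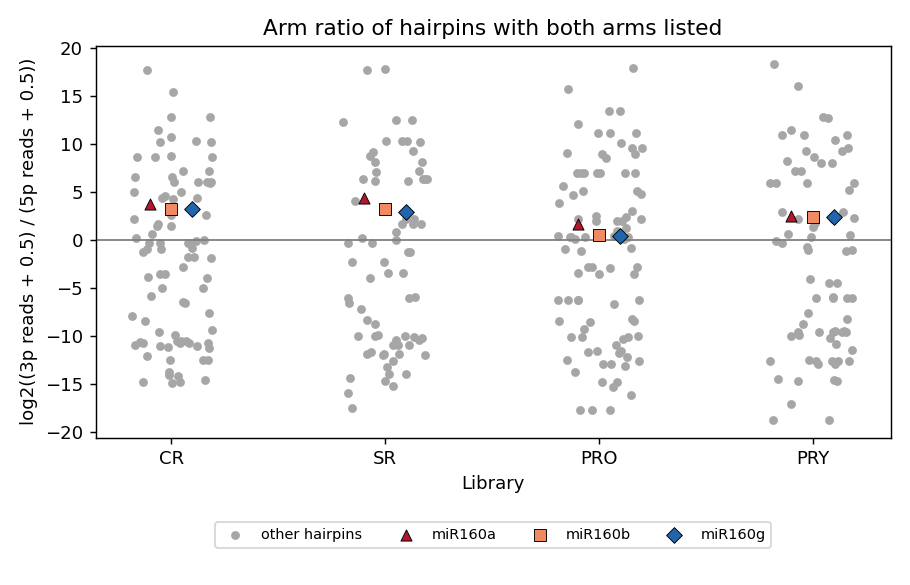
Log2 ratio of 3p to 5p reads, with 0.5 reads added to each, for known hairpins with at least 30 reads over both arms in the CR, SR, PRO and PRY libraries; each grey point is 1 hairpin. The miR160a, miR160b and miR160g points lie above 0 in all 4 libraries, between 0.41 in PRO and 4.34 in SR, well inside the range of all hairpins.

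The change of the arm ratio between libraries could be set beside hairpins with at least 5 reads of each arm in both libraries. For SR over PRY the log2 change of miR160a was 1.91, above all 34 other hairpins measured, miR160b and miR160g among them. The median with miR160a included was -0.17. For SR over PRO it was 2.78, with 1 of 38 hairpins above it, which was miR160b. For CR over PRO it was 2.16, with 2 of 45 above it, which were miR160b and miR160g. No hairpin of another family thus lay above miR160a in SR over PRY, SR over PRO or CR over PRO. For PRO over PRY, where miR160a changed by -0.88, 26 of 36 hairpins lay above it. For CR over PRY it was 1.28, with 4 of 35 above. The ratio of ratios there was 2.43 for the miR160a pair and 1.91 for the miR160b and miR160g pairs, so those 4 were of other families. For CR over SR the change of miR160a was -0.62, with 30 of 36 above. In SR and CR the miR160a-5p value rests on 7 and 6 reads, and entries of a family share reads, so these positions describe the libraries and are not tests.

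For counts of miRNAs, only those at 10 RPM or above in at least 1 of the 2 libraries were measured, and a difference of at least 1 in log2(RPM + 1) counted as higher or lower. No 5p entry of miR160 reached 10 RPM in any library, so the difference of the guide strand entered no count. Against PRY, 3 of the 9 entries were measured, all of them 3p. In PRO, zma-miR160b-3p and zma-miR160g-3p were counted as lower, at -1.59, beside 16.7% of the 102 miRNAs measured, and zma-miR160a-3p, at -0.70, was not. In SR the same pair was counted as lower, at -1.28, beside 29.7% of 101, and zma-miR160a-3p stood at -0.41. In CR all 3 were counted as lower, at -1.40 for the identical pair and -1.11 for zma-miR160a-3p, beside 24.8% of 101. The share of all miRNAs counted as higher was 18.6% in PRO, 17.8% in SR and 16.8% in CR, with no miR160 entry among them. The median log2 difference of the measured miR160 entries was -1.59 in PRO, -1.28 in SR and -1.40 in CR, beside -0.17, -0.65 and -0.64 over all measured miRNAs. No miR160 entry was counted in SR against PRY with any of the 4 other scalings, nor in CR against PRY with 3 of them, TMM factors being the exception. As these entries passed the minimum through PRY, where they are high, their counts carry no weight of their own.

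In the comparisons without PRY, zma-miR160a-3p alone was measured and was not counted. It stood at -0.69 for CR over SR, where 18.5% of 92 miRNAs were lower and 6.52% higher. For CR over PRO it stood at -0.40, where 28.4% of 95 were lower and 3.16% higher, and for SR over PRO at 0.29, where 17.5% of 97 were lower and 2.06% higher. With TMM factors it was counted as lower for CR over SR, at -1.37. These splits depended on the scaling. With the library total, 19 miRNAs were higher and 17 lower for PRO over PRY, 18 and 30 for SR over PRY, 17 and 25 for CR over PRY, 6 and 17 for CR over SR, 3 and 27 for CR over PRO, and 2 and 17 for SR over PRO. With the miRNA total the splits were 29 and 6, 26 and 4, 40 and 13, 15 and 5, 10 and 10, and 5 and 5 in the same order. TMM factors gave 29 and 7 for PRO over PRY, 21 and 7 for SR over PRY, 2 and 31 for CR over SR, and 5 and 5 for SR over PRO. DESeq2 size factors gave 19 and 9 for SR over PRY, 23 and 16 for CR over PRY, 5 and 11 for CR over PRO, and 7 and 4 for SR over PRO. Without miR156 the splits equalled those of DESeq2 for SR over PRY, CR over PRY and CR over PRO, and were 21 and 7 for PRO over PRY and 5 and 5 for SR over PRO.

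The other miRNAs of auxin signalling are set beside miR160 as values. miR167 targets activating auxin response factors, miR390 starts the production of trans-acting siRNAs against a further group of them, and miR393 targets the TIR1/AFB auxin receptors. By the highest entry of each family, which for miR160 is the passenger zma-miR160a-3p, miR160 stood at 7.69 RPM in CR, 13.0 in SR, 10.5 in PRO and 17.7 in PRY, and ranked 17, 15, 17 and 14 among 29 families. The miR160 guide zma-miR160d-5p, at 0.549, 0.778, 3.53 and 3.08 RPM in that order, ranked 157 of 213 known miRNAs with reads in CR, 127 of 202 in SR, 119 of 217 in PRO and 100 of 194 in PRY. miR167 reached 826, 709, 1258 and 377 RPM in the same libraries, miR390 reached 33.5, 48.2, 75.4 and 45.1, and miR393 reached 3.57, 2.07, 3.44 and 1.87. By these values the miR160 guide lay below miR393 in CR and SR and above it in PRO and PRY. In reads of zma-miR160d-5p and miR393a-5p that was 39 against 38 in PRO and 33 against 20 in PRY. No interval was computed for this comparison of families. In hairpins of miR167 and miR390 the 5p arm held more reads. miR167b had 160 reads of its 3p arm against 9022 of its 5p arm in CR, and miR390a had 11 against 366.

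Of the 30 entries of miR167, miR390 and miR393, 15 were measured in each comparison. In PRO against PRY 5 were higher, 2 lower and 8 neither, beside 18.6% higher and 16.7% lower over all measured miRNAs, and the counts were the same in SR against PRY, beside 17.8% and 29.7%. In CR against PRY 5 were higher, 0 lower and 10 neither, beside 16.8% and 24.8%. The higher ones were miR167a-5p, miR167b-5p, miR167c-5p, miR167d-5p and miR167b-3p in all 3 comparisons. The lower ones in PRO and SR were the passenger strands miR167h-3p and miR167i-3p. These entries are not separate measurements: in PRY miR167a-5p, miR167c-5p and miR167d-5p had 3075 reads each and miR167b-5p had 3085, and miR167h-3p and miR167i-3p had 1980 each. In CR against SR 2 were higher and 0 lower, beside 6.52% and 18.5%, and in CR against PRO 2 were higher and 2 lower, beside 3.16% and 28.4%. In SR against PRO none of the 15 was counted, beside 2.06% higher and 17.5% lower. Side by side, the CR over PRO ratio was 0.657 for miR167b-5p (0.640 to 0.674), 0.444 for miR390a-5p (0.392 to 0.503) and 1.04 for miR393a-5p (0.648 to 1.67), beside 0.156 for zma-miR160d-5p. The SR over PRO ratio was 0.564 for miR167b-5p, 0.639 for miR390a-5p and 0.603 for miR393a-5p (0.346 to 1.03), beside 0.220 (0.0939 to 0.463) for zma-miR160d-5p. The SR over PRY ratio was 2.46 for miR167b-5p (2.36 to 2.57), 1.07 for miR390a-5p (0.944 to 1.21) and 1.11 for miR393a-5p (0.589 to 2.12), beside 0.253 for zma-miR160d-5p.

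Likeness of pattern was measured as the distance between log2(RPM + 1) values of the 4 libraries, each centred on its mean, over 67 known miRNAs of other families with distinct values at 10 RPM or above in a library. Nearest to zma-miR160a-3p was miR166a-5p, a passenger strand of the family that represses class III HD-ZIP factors, at a distance of 0.50 beside a median of 1.15. It had 66 reads in CR, 92 in SR, 116 in PRO and 126 in PRY. The next were miR166l-3p at 0.53 and miR166a-3p, miR166b-3p and miR166c-3p, at 0.56 each, which share nearly all reads. Nearest to zma-miR160d-5p was miR169c-3p, at 0.40 beside a median of 1.28, with 163 reads in CR, 140 in SR, 365 in PRO and 318 in PRY. The next 4, all at 0.61, were miR159a-3p, miR159b-3p, miR159f-3p and miR159j-3p, nearly equal entries of the family that targets MYB factors. miR159a-3p had 605 reads in CR, 620 in SR, 1142 in PRO and 934 in PRY. The pseudocount of 1 RPM shrinks the differences of zma-miR160d-5p, which lay below 4 RPM, so its neighbours differ less in ratio than it does.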

How the data were processed

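Small RNAs of 18 to 30 nt were, per the labels' protocols, selected, made into libraries with 18 cycles of PCR and read on an Illumina/Solexa Genome Analyzer. The deposited values are called TPM in the header and were treated as RPM, because 100% of them were whole multiples of 1 step per library within 0.01 read. Those steps gave the library totals and the reads. The sources used here do not give the aligner, the miRNA release or the rule for reads that match several entries.

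Ratios are recovered reads scaled to library totals, with exact conditional binomial (Clopper-Pearson) 95% intervals, and single values have exact Poisson intervals. Reads were amplified and carry no molecular identifiers, so they are not independent molecules, and the intervals and the floor of 3 reads cover counting error only. The ratio of ratios has the exact conditional interval of its 2 by 2 table. With 1 library per group no test was made, and a count model on the recovered reads (edgeR) would have no residual degrees of freedom. The pseudocount of 1 RPM in log2(RPM + 1) understates the differences of low miRNAs.

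Alternatives were the total over distinct miRNA entries, that total without miR156, TMM factors from edgeR 4.0.16, size factors from DESeq2 1.42.0, a pseudocount of 10, no minimum, a minimum of 50 RPM, identical entries counted once, and other choices of entries for the arms. Entries of a family were distinct when their reads differed in any library, so these miRNA totals count reads shared by nearly equal entries repeatedly. The text names all 9 entries, the highest entries of the other auxin families, hairpins set beside them, and the 5 nearest miRNAs to each arm's highest entry. The members and lists were chosen with earlier results of these data known. Calculations used Python 3.11.15, pandas 2.3.3, numpy 2.4.6, scipy 1.17.1, matplotlib 3.10.9 and R 4.3.3, and the code was tested on simulated data.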

Additional observations from a re-analysis of the deposited data

How the results depend on the processing

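Depth limits the 5p arm most, with 6 to 9 reads in CR and SR, and no replicate shows how much libraries of 1 group differ. No paired analysis was possible because each group had 1 library. The main counts of higher and lower miRNAs were 36 for PRO over PRY, 48 for SR over PRY, 42 for CR over PRY, 23 for CR over SR, 30 for CR over PRO and 19 for SR over PRO. Without a minimum they were 110, 111, 126, 92, 76 and 83. With a minimum of 50 RPM the count was 26 for SR over PRY, 23 for CR over PRY, 12 for CR over SR and 8 for SR over PRO. Scaling changed SR over PRY to 30 with the miRNA total and to 28 with TMM, with DESeq2 and without miR156. It changed SR over PRO to 10, 10, 11 and 10 in that order, and CR over PRO to 16 with DESeq2 and without miR156. A pseudocount of 10 gave 27 for CR over PRY and 6 for SR over PRO.

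Of miR160 entries, 2 were counted as lower in PRO against PRY, 2 in SR and 3 in CR. A pseudocount of 10 and a minimum of 50 RPM, which no entry reaches, each left 0 in all 3. Counting identical entries once left 1 in PRO and 1 in SR by construction. In SR, 0 remained with each of the 4 other scalings, and in CR, 0 with the miRNA total, with DESeq2 and without miR156; the cause was not tested. Without a minimum the 5p entries entered, and 8 entries were lower in SR and 9 in CR against PRY, and 6 in CR and 6 in SR against PRO. With TMM factors 1 was lower in CR against SR. Of 270 differences in log2(RPM + 1) of single entries under other scalings or a pseudocount of 10, identical entries included, 70 fell outside the counting interval of the main value put on the same scale and 200 did not. No counted one changed sign.

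The 3p share over all entries came to 85.0% in CR, 85.8% in SR, 49.1% in PRO and 73.0% in PRY. In PRO it was 58.4% for the miR160b pair and 57.1% for the miR160g pair, and in SR 88.6% for the miR160g pair. Setting miR160b-3p against the higher 5p set, chosen after seeing the data, gave the same 88.6% in SR and 57.1% in PRO. The PRO over PRY change of the arm ratio was 0.268 for the miR160b pair and 0.254 for the miR160g pair, against 0.517 for the highest entries. The comparison of hairpins with 5 reads of each arm was also chosen after seeing the data.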
